A study of Mus musculus with 15 samples.

Results

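Effector group 2 innate lymphoid cells (ILC2s) from the lungs of adult mice given IL-33 were compared with ILC2s from the lungs of naive adults. The 12 arrays were chosen by their labels, 6 effector and 6 naive, out of 15 arrays in the series; the 3 arrays of naive neonates aged 10 days were left out. Each group held 3 arrays of cells from females and 3 of cells from males, labelled as biological replicates, and the sexes were given equal weight. Naive adults were 8 weeks old. Effector adults had received IL-33 into the nose on 3 consecutive days, and their cells were taken 1 day after the last dose. The labels give no strain, genetic modification, sort markers, dose of IL-33, vehicle treatment or number of mice per replicate, and the age of the effector adults is given only as adult. Whether naive adults received a carrier into the nose is not stated, so the effects of handling and of IL-33 cannot be told apart. The spread between replicates is that between these samples.

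ILC2s are tissue-resident lymphocytes that carry no rearranged antigen receptor and respond to cytokines released by damaged or stimulated epithelium. IL-33 signals through the receptor ST2 and the adaptor MyD88 to NF-κB and MAP kinases, and stimulated ILC2s divide and release IL-13, IL-5 and other type 2 cytokines. A dividing, secreting lymphocyte must copy and pack its chromosomes, build ribosomes, and enlarge its nuclear transport, mitochondria and secretory route.

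All values below are log2 expression levels, and each difference is effector minus naive, so that a difference of 1 is a doubling. The value after ± is the moderated standard error of limma, with n = 6 arrays in each group. A gene was called, and is said to have risen or fallen, at a Benjamini-Hochberg adjusted p under 0.05 over all 15821 genes tested. Levels are compared between groups for 1 gene and never between genes. RMA brings the probes of all arrays to a common distribution, so a change is relative to the other RNAs of a cell, and in bulk RNA fewer cells of a type and less RNA per cell cannot be told apart.

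Arrays correlated over all 41345 features at r = 0.960 to 0.977 within the effector group, 0.897 to 0.960 within the naive group, and 0.870 to 0.944 between the groups. Naive arrays varied more, with a median SD over genes of 0.289 against 0.196 in effector arrays. All 11 ILC2 markers measured, among them Gata3, Rora, Il7r, Id2 and Klrg1, lay above background in both groups; Il2ra and Arg1 rose, by 0.45 ± 0.10 and 0.59 ± 0.10, and Il7r and Ccr8 fell, by 1.11 ± 0.12 and 1.09 ± 0.14. Their mean level per array was 9.41 to 9.68 in naive and 9.27 to 9.55 in effector cells. The mean over 8 T cell markers was 5.39 to 5.59 in naive and 5.11 to 5.34 in effector cells, and 2 of them fell, Cd3g, which went from 10.22 to 9.65, and Cd8b1, below background in both groups. None of 6 B and plasma cell markers and none of 5 eosinophil markers lay above background in either group. Other lists did show signal. Of 9 epithelial markers 4 lay above background in naive and 6 in effector cells, among them Ager, Cdh1 and Krt8 in both, and none was called. Of 7 fibroblast and smooth muscle markers 1 lay above background in naive and 4 in effector cells, with Acta2 in both, and Pdgfrb rose. Of 6 NK cell and ILC1 markers 1 and 2 lay above background, and Klrb1c, below it in both groups, fell. Of 7 endothelial markers 3 fell, with a mean level of 4.81 to 5.60 in naive and 4.78 to 5.03 in effector arrays. Tek, Cldn5 and Vwf, which fell, lay below background in both groups, while Pecam1 and Egfl7, above it in both, were not called. Of 10 macrophage, monocyte and dendritic cell markers 3 fell and 1 rose, with 4.18 to 4.84 and 4.08 to 4.25. Adgre1, Mrc1 and Xcr1, which fell, lay below background in both groups, and Cd68, which rose, lay above it in both. Of 7 mast cell and basophil markers 1 rose, with 3.42 to 3.89 and 3.60 to 4.33, and of 7 neutrophil markers 1 fell, with 3.89 to 4.79 and 3.61 to 3.85. Mcpt8, which rose, passed background only in effector cells, and S100a9, which fell, in neither group. The part of other cell types in the results below was not tested. Background was set for each group as the level that 95% of 1420 features of olfactory, vomeronasal and trace amine receptor genes did not pass, and it was higher in naive cells, at 5.44, than in effector cells, at 4.62.

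The difference between effector and naive cells covered a large share of the genes. Of 15821 genes, 6205 (39.2%) were called, 4166 (26.3%) higher and 2039 (12.9%) lower in effector cells. In 3249 genes (20.5%) the 6 effector arrays did not overlap the 6 naive arrays. The rises were also the larger changes. At least a doubling was seen in 1168 called genes against at least a halving in 381, a 4-fold rise in 265 against a 4-fold fall in 77, and a 16-fold rise in 20 against a 16-fold fall in 3. The median difference over all genes was 0.04.

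Calls differed with the position of a gene relative to background. Among 8040 genes above background in both groups, 2995 rose and 941 fell. A further 3384 genes passed background only in effector cells, of which 1077 rose, 132 fell and 2175 were not called. Because background was lower in effector cells, a gene at an equal level in both groups could belong to this class. Of 4324 genes below background in both groups, 896 fell and 94 rose. Sensory receptor genes, which serve smell and pheromone detection, fell in 201 of 359 cases. Background was set from features of sensory receptor genes, so their falls and the higher background of naive arrays are not separate observations. The part of background in the other falls was not tested. Genes named below were above background in the group where they were higher. Some that rose, among them Brca1, Hells and Asns, were below background in naive cells, and their differences depend on how low naive arrays read. With each array centred on its median, the median difference moved to 0.18 and the split of called genes to 5524 higher and 1148 lower, so that 82.8% of called genes were higher against 67.1% without centring.

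**Figure D1:**
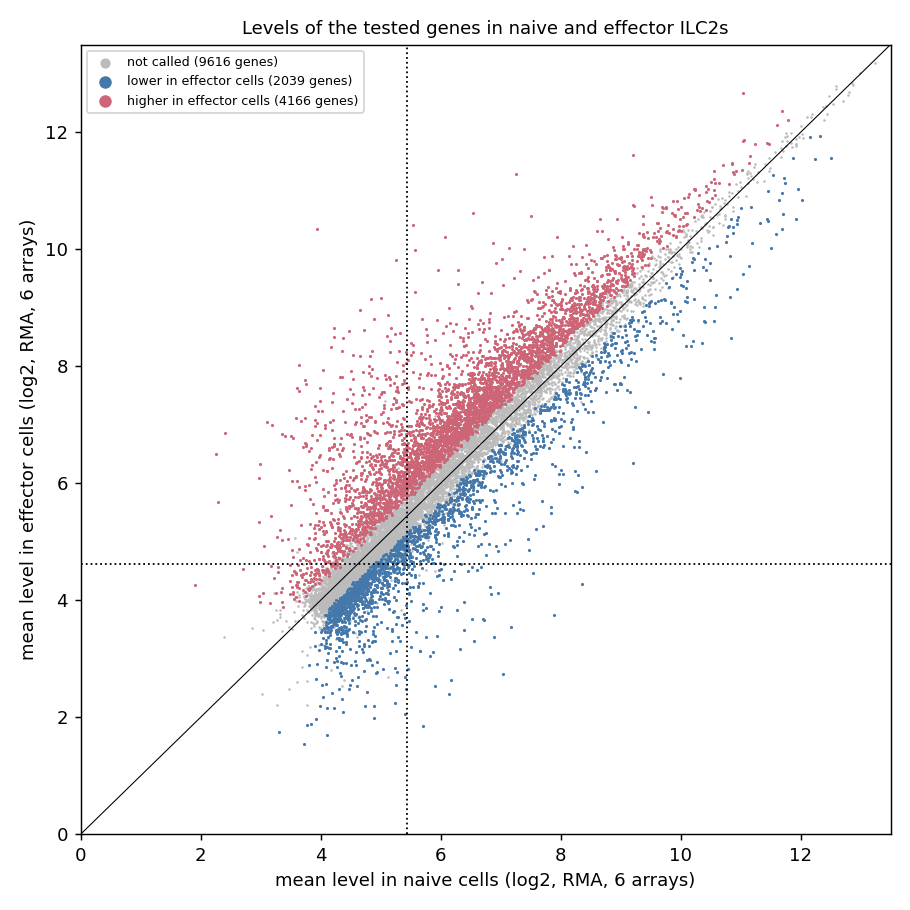
Mean level of each tested gene in the 6 naive arrays (horizontal axis, log2) and the 6 effector arrays (vertical axis, log2), coloured by call; the solid line marks equal levels and the dotted lines the background level of each group, 5.44 in naive and 4.62 in effector cells. The 4166 higher genes reach farther from the line than the 2039 lower genes, many of which lie near background in both groups.

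The 12 largest rises were taken among genes with separate groups and above background in effector cells, leaving out genes that earlier text on these data had named, predicted gene models, sensory receptors, antigen receptor segments and small RNA genes. They were led by a receptor and by genes of chromosome duplication and division. Adgrg7, an adhesion G protein-coupled receptor, read 4.63 to 6.14 (median 5.63) in naive and 9.70 to 10.33 (median 9.90) in effector arrays, a rise of 4.41 ± 0.18 or 21.3-fold (adjusted p = 3.02e-09). Slc15a3, a lysosomal carrier of histidine and small peptides, read 4.15 to 5.01 (median 4.80) in naive and 8.77 to 9.13 (median 8.97) in effector arrays and rose by 4.30 ± 0.14. Tnfrsf8, which encodes the TNF receptor family member CD30, went from 4.66 to 5.20 (median 5.13) to 8.79 to 9.62 (median 9.12), a rise of 4.17 ± 0.15. Separate groups were a condition for naming these 3 genes of surface or vesicle proteins.

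The other 9 of these 12 rises belong to the cell cycle or to chromatin. Dtl, a substrate receptor of the CRL4 ubiquitin ligase that destroys the replication licensing factor Cdt1, read 4.55 to 5.43 (median 4.76) in naive and 8.90 to 9.35 (median 9.12) in effector arrays (difference 4.30 ± 0.14, adjusted p = 1.02e-09). Cdk1, the kinase that starts mitosis, read 3.84 to 5.05 (median 4.44) and 8.02 to 9.02 (median 8.65) (difference 4.12 ± 0.18). H2ax, the histone variant phosphorylated at DNA breaks, read 6.24 to 6.76 (median 6.55) and 10.45 to 10.89 (median 10.59) (difference 4.09 ± 0.11). The gap between the groups, which the naming rule required, was wider here than the whole spread of either group. The mitotic genes Prr11, Cenpk, Ndc80 and Birc5, of which Cenpk and Ndc80 encode kinetochore proteins and Birc5 survivin, rose by 4.38 ± 0.21, 4.25 ± 0.18, 4.03 ± 0.15 and 3.94 ± 0.16. E2f8, an atypical E2F that represses E2F targets, rose by 4.16 ± 0.19, and Cip2a, an inhibitor of the phosphatase PP2A, by 3.94 ± 0.21. Apart from Adgrg7 and H2ax, these genes were below background in naive cells, so that their differences depend on how low the naive arrays read.

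**Figure D2:**
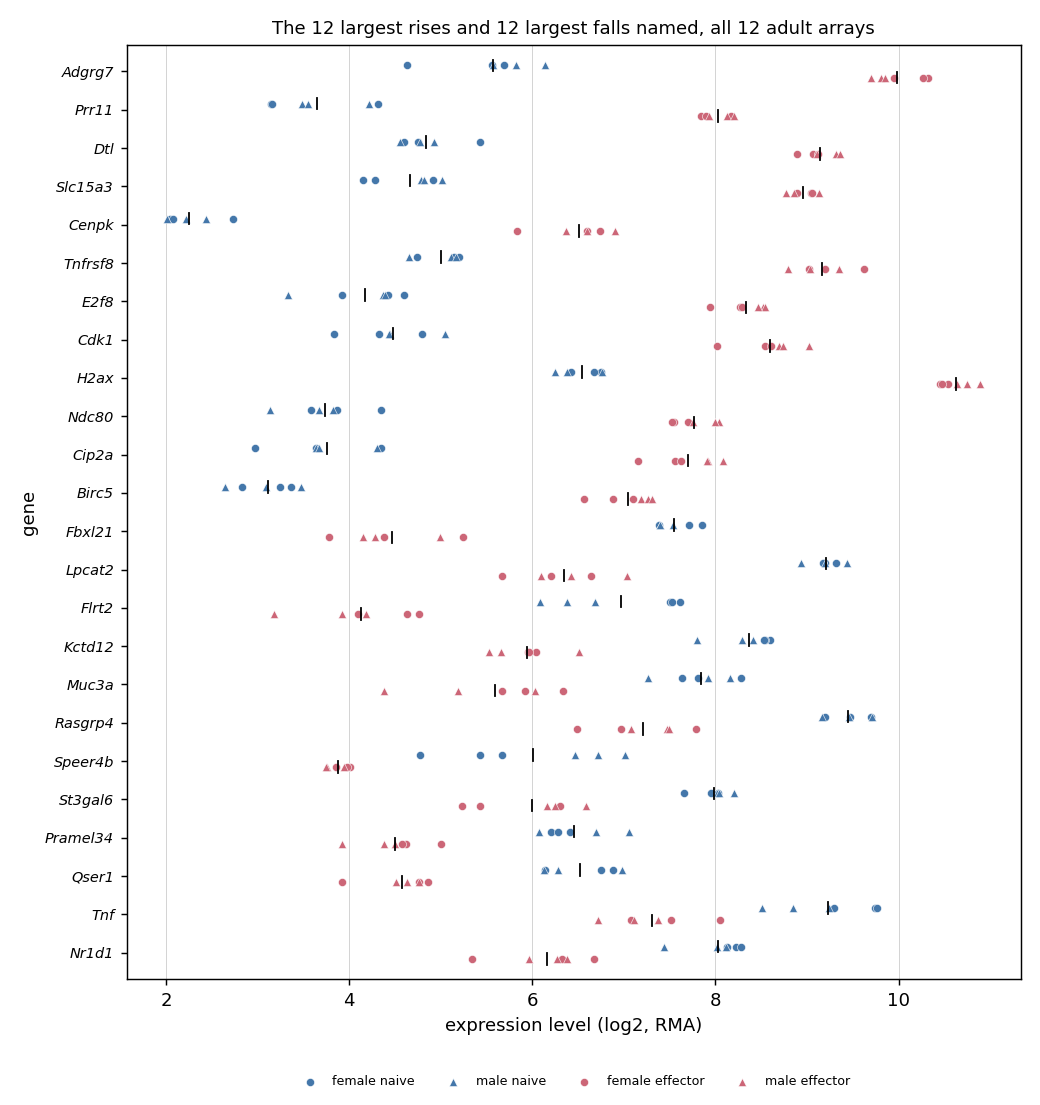
Expression level (log2) of the 12 largest rises (upper rows) and 12 largest falls (lower rows) within the limits given in the text in each of the 12 arrays; circles are females, triangles males, blue naive, red effector, and black bars the mean of 6 arrays. Adgrg7 moves from 5.57 to 9.98 and Lpcat2 from 9.21 to 6.35, and groups that do not overlap were a condition for entering the plot.

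Promoters of 3 cell cycle and chromatin genes among the strongest responders are shown because these genes rose together and their start regions hold letters of known cell cycle elements. RefSeq promoter windows on GRCm38.p6 run from 250 bases before to 50 bases after the gene start. They were searched on both strands for the E2F site TTTCCCGC or TTTGGCGC and for TTTGAA, the core of the cell cycle homology region (CHR) that the MuvB complex binds; matches are in capitals and no 2 of them overlap. Dtl lies at chr1:191575495-191575794 (reverse strand), Hells, a chromatin remodeller described below, at chr19:38930740-38931039 (forward strand), and Cdk1 at chr10:69352863-69353162 (reverse strand).
Dtl: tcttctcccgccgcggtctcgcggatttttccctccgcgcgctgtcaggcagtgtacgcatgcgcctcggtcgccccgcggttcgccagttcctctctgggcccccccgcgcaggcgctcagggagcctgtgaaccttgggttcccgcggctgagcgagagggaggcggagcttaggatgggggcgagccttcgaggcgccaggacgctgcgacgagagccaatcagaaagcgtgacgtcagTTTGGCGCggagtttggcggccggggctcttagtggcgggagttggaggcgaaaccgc
Hells: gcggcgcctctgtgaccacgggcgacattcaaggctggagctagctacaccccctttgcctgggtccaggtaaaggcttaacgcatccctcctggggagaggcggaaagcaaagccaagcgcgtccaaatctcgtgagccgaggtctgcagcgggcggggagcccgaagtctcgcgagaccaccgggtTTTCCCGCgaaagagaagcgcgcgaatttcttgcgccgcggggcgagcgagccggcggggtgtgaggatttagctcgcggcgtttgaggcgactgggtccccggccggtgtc
Cdk1: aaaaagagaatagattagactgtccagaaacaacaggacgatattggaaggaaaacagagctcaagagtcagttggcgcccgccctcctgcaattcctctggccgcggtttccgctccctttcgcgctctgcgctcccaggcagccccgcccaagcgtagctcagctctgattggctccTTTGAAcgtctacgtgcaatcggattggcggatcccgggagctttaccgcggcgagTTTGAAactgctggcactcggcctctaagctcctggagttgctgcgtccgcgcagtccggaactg
The Dtl promoter holds an E2F match that begins 8 bases before the start, and the Hells promoter one that begins 62 bases before it. In the Cdk1 promoter a CHR match begins 71 bases and another 15 bases before the start. Among the 12 rises described above, 10 had a promoter in the table, of which 1 held the E2F letters and 5 the CHR letters. Over all called higher genes, 3381 of 4166 had a promoter, and 171 of these (5.06%) held the E2F letters, against 486 of 27025 genes (1.80%) in the whole table. The CHR letters were in 526 (15.6%) of the higher genes with a promoter and in 20.2% of the table. The ETS letters CCGGAAG were in 23.4% of the higher genes and 9.93% of the table. Only 73.9% of the lower genes and 77.7% of all tested genes had a promoter, too few for the same count over them, which is therefore void. The table also covers genes not tested here, and a match of letters is a description and not a binding site.

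Genes were next taken in 49 lists of pathways and structures, of which 1266 entries were tested. Among these entries 582 were higher and 133 lower. In 20 lists at least 50% of the members rose, against 26.3% of all genes, and in 6 lists the share that fell was more than 2 times the 12.9% of all genes. The lists below are given in the order nucleus, RNA, protein and organelles, signalling, cytoskeleton and surface, followed by the lists with more falls than rises.

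**Figure D3:**
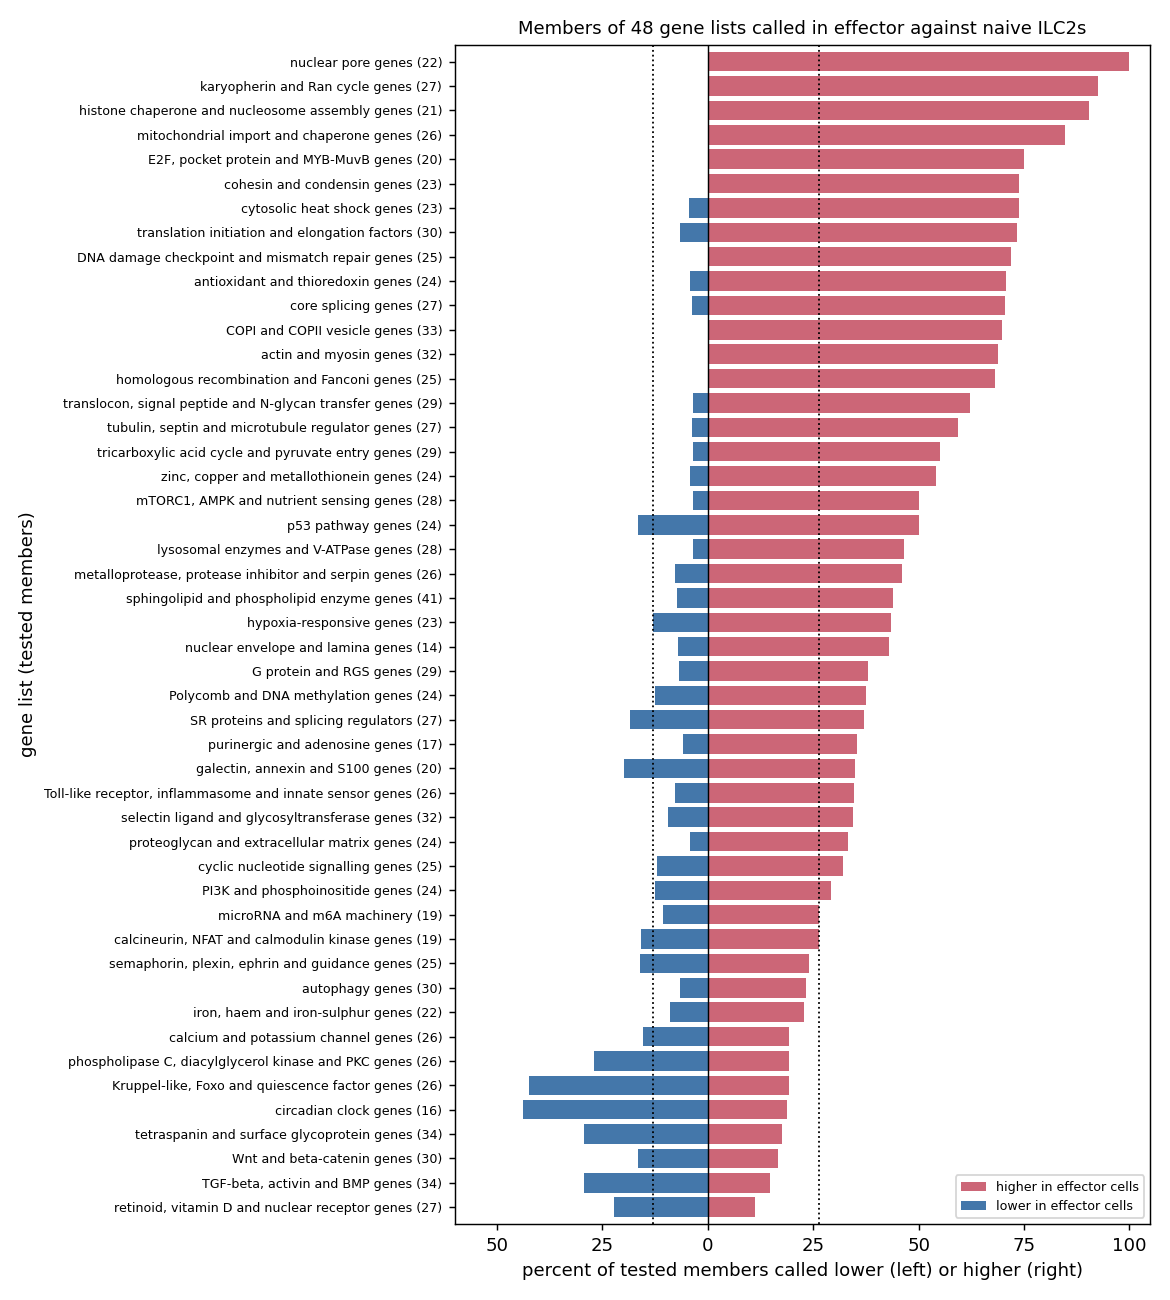
Share of tested members (percent) called higher (red, to the right) or lower (blue, to the left) in effector cells for each of 48 of the gene lists, with the number of tested members in brackets; dotted lines mark the shares over all 15821 genes, 26.3% higher and 12.9% lower. Nuclear pore genes are at the top with 22 of 22 members higher, and the clock and Kruppel-like lists reach farthest to the left.

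Regulators of cell cycle transcription, activators and repressors alike, came first. Of 20 tested genes of the E2F, pocket protein and MYB-MuvB families, 15 rose and none fell, with a median difference of 1.23. Tfdp1, the partner that E2F proteins need to bind DNA, read 4.94 to 7.89 (median 7.54) in naive and 9.83 to 10.19 (median 10.03) in effector arrays (difference 2.88 ± 0.36, adjusted p = 5.84e-05). Foxm1, the transcription factor of the G2 and M genes, rose by 2.35 ± 0.14 from below background. Myb, a proto-oncogene of lymphoid progenitors that was named after its values were seen, read 4.46 to 5.79 (median 4.65) in naive and 8.51 to 9.18 (median 8.78) in effector arrays and rose by 3.92 ± 0.22. Its effector arrays all lay above its naive arrays.

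Replication was accompanied by its repair and checkpoint genes. Among homologous recombination and Fanconi genes, which mend double-strand breaks and crosslinks, 17 of 25 rose, among them the helicase Brip1 (2.49 ± 0.16) and Brca1 (2.28 ± 0.20). In naive cells 10 of the 25 lay above background, and Brip1 and Brca1 lay below it. In the damage checkpoint and mismatch repair list 18 of 25 rose. Lig1, the ligase that joins Okazaki fragments, read 6.56 to 7.63 (median 6.82) in naive and 9.50 to 10.02 (median 9.76) in effector arrays (difference 2.83 ± 0.15, adjusted p = 3.54e-08). The checkpoint mediator Clspn rose by 2.44 ± 0.11. Of 24 p53 pathway genes 12 rose and 4 fell, and the named members have different functions: Gtse1 restrains p53 in G2 and rose by 1.96 ± 0.15, Sesn2 curbs mTORC1 under stress and rose by 1.75 ± 0.15, and the death receptor Fas rose by 1.72 ± 0.22.

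Chromosome structure genes followed the same direction. Cohesin and condensin genes, whose ring complexes hold sister chromatids and compact chromosomes, rose in 17 of 23 cases with a median of 0.77. The 3 members with the largest rises encode condensin subunits: Ncaph rose by 3.24 ± 0.12, Ncapg2 by 3.07 ± 0.14 and Ncapd2 by 2.82 ± 0.11. Ncapd2, above background in both groups, read 5.26 to 5.74 (median 5.56) in naive and 8.02 to 8.65 (median 8.37) in effector arrays. In the nuclear envelope list 6 of 14 genes rose, with the lamin Lmnb1 at 2.55 ± 0.14, the lamin B receptor Lbr at 1.00 ± 0.27 and the lamina-associated protein Tmpo at 0.87 ± 0.17.

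Histones and the proteins that load them on DNA rose strongly. Of 21 histone chaperone and nucleosome assembly genes 19 rose, with a median of 1.05. Hells, a remodeller that aids DNA methylation of new chromatin and whose promoter is printed above, read 4.28 to 5.25 (median 4.67) in naive and 8.44 to 8.97 (median 8.54) in effector arrays (difference 3.90 ± 0.17, adjusted p = 5.70e-09). Asf1b, which hands histones H3 and H4 to assembly factors, rose by 3.49 ± 0.15, and Chaf1a, the large subunit of chromatin assembly factor 1, by 2.92 ± 0.18. No effector array of these 3 genes reached down to a naive array. Histone genes themselves, a class set up after values were seen, rose in 18 of 24 cases and fell in 2, with a median of 1.62. H2ac10 read 6.16 to 7.39 (median 7.01) in naive and 9.81 to 10.52 (median 10.07) in effector arrays (difference 3.22 ± 0.20), and H2bc3 rose by 2.81 ± 0.32. H4c14 fell by 1.85 ± 0.41 with overlapping groups. Members of histone clusters are near-identical copies whose probes can share signal, so their values are uncertain one by one.

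Polycomb and DNA methylation genes were closer to the share of all genes, with 9 of 24 higher and 3 lower. The lower count was 5 without naive male 1 or without naive female 3. The maintenance methyltransferase Dnmt1 read 6.84 to 7.54 (median 7.21) in naive and 8.59 to 9.10 (median 8.92) in effector arrays (difference 1.66 ± 0.13). Ezh2, the methyltransferase of Polycomb complex 2, rose by 1.51 ± 0.11 and Cbx5, the heterochromatin protein HP1 alpha, by 1.96 ± 0.21. All 3 had separate groups.

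Traffic through the nuclear envelope was the most uniform of the 49 lists. All 22 tested nuclear pore genes rose, with a median of 0.95. Ndc1, which anchors the pore in the membrane, read 5.24 to 7.43 (median 6.80) in naive and 8.39 to 8.83 (median 8.59) in effector arrays (difference 2.07 ± 0.30, adjusted p = 1.80e-04). Nup107 of the outer ring rose by 1.53 ± 0.18 and Nup93 of the inner ring by 1.36 ± 0.19. Of 27 karyopherin and Ran cycle genes, which carry cargo through the pore, 25 rose with a median of 0.90. The import receptors Kpna2 and Ipo7 rose by 1.99 ± 0.13 and 1.72 ± 0.17, and Xpot, the exporter of transfer RNA, by 1.78 ± 0.21. Ipo7 was above background in both groups, at 6.75 to 7.73 (median 7.06) in naive and 8.70 to 9.11 (median 8.91) in effector arrays.

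Transcription machinery moved in one direction too, in classes formed after values were seen. Subunits of the RNA polymerases (Polr genes) rose in 15 of 26 cases (24 with centred arrays, 11 with quantile normalization) and general transcription factors (Gtf genes) in 13 of 21, with no fall in either class. Mediator (Med) genes rose in 14 of 31 cases (8 with quantile normalization) and 1 fell. Medians were 0.51, 0.62 and 0.34.

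Constitutive splicing genes rose, while splicing regulators did so less evenly. Of 27 core splicing genes 19 rose, with a median of 0.54. Snrpd1, a core Sm protein, read 7.35 to 7.76 (median 7.55) in naive and 8.84 to 9.65 (median 9.34) in effector arrays (difference 1.73 ± 0.14, adjusted p = 1.13e-06), Lsm2 of the U6 ring rose by 1.48 ± 0.16, and the U5 GTPase Eftud2 by 1.12 ± 0.15. In each the 6 effector arrays lay above the 6 naive arrays. Among 27 SR proteins and splicing regulators 10 rose and 5 fell. The fallen count was 3 without naive female 2 or effector female 2, 2 without effector male 3 or with centred arrays, and 8 with quantile normalization. Srsf10 rose by 1.12 ± 0.18 and Hnrnpab by 0.81 ± 0.12, while Clk1, a kinase of SR proteins, fell by 0.74 ± 0.13.

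Box C/D small nucleolar RNA genes fell more often than they rose, while box H/ACA genes did not lean one way. These classes were set up after values were seen, from the RefSeq biotype of each gene. Box C/D small nucleolar RNAs guide 2'-O-methylation and box H/ACA RNAs pseudouridylation of ribosomal RNA, and most lie in introns of host genes. Of 42 box C/D genes 14 fell and 2 rose, shares of 33.3% and 4.76% beside 12.9% and 26.3% of all genes. Of 23 box H/ACA genes 7 rose and 5 fell, with a median of 0.17, and above background in the mean of all arrays 5 of 20 rose and 6 fell, with a median of -0.07. Snord99 read 8.14 to 8.78 (median 8.65) in naive and 5.52 to 6.66 (median 6.27) in effector arrays (difference -2.38 ± 0.18, adjusted p = 7.08e-07), and Snord104 read 10.13 to 10.53 (median 10.37) and 7.93 to 8.93 (median 8.30) (difference -1.97 ± 0.15). Snord65 and the H/ACA RNA Snora31 fell by 1.75 ± 0.17 and 1.83 ± 0.15. Effector arrays lay below all naive arrays for each of the 4. Snora73a and Snora73b, near-identical copies whose probes can share signal, rose by 1.82 ± 0.27 and 1.76 ± 0.26. Of the 5 small nuclear RNA genes 3 fell, among them Rnu11 (-1.82 ± 0.13) and Rnu12 (-1.38 ± 0.17), the U11 and U12 RNAs of the minor spliceosome.

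Small nucleolar RNA host genes were a class picked by symbol after values were seen. Of 16 such genes 10 rose and 2 fell, with a median of 0.49 (7 and 3 with quantile normalization). The 10 and 2 genes were 62.5% and 12.5% of the class, beside 26.3% higher and 12.9% lower over all genes. Hosts were not paired with the small RNAs they carry. Zfas1 read 8.91 to 9.69 (median 9.22) in naive and 10.64 to 10.90 (median 10.75) in effector arrays (difference 1.55 ± 0.13, adjusted p = 1.86e-06). Snhg6 rose by 1.25 ± 0.09, Snhg4 by 1.21 ± 0.13, Snhg5 by 1.06 ± 0.14 and Snhg3, the host of the Snora73 copies above, by 0.80 ± 0.16. Taf1d, a subunit of the RNA polymerase I factor SL1 whose introns carry small nucleolar RNAs, read 10.77 to 11.38 (median 11.04) and 12.56 to 12.82 (median 12.68) (difference 1.64 ± 0.11). The effector arrays of these 6 genes were all higher. An array feature of a host gene and one of its intronic RNA report different parts of one transcript.

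**Figure D4:**
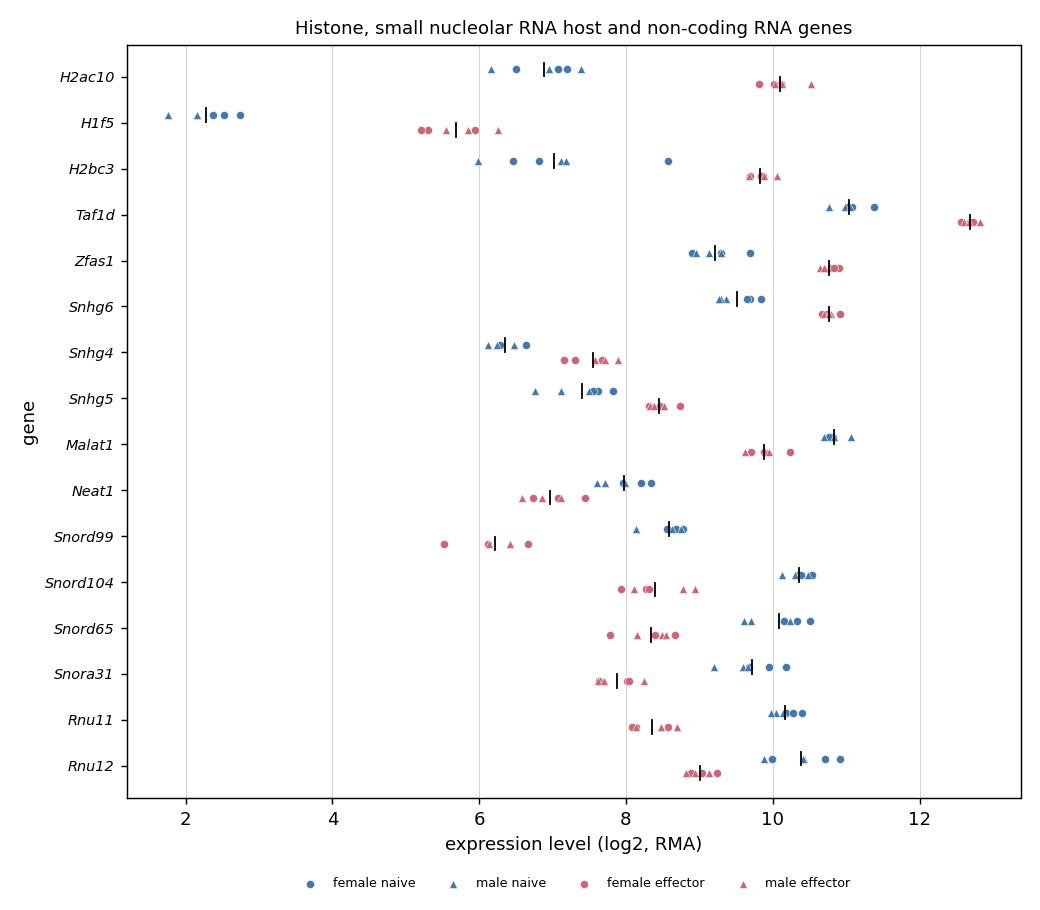
Expression level (log2) in each of the 12 arrays for histone, small nucleolar RNA host, long non-coding, small nucleolar and small nuclear RNA genes; circles are females, triangles males, blue naive, red effector, and black bars group means. Host genes such as Zfas1 move to the right in effector cells, from a mean of 9.21 to 10.76, and Snord99 to the left, from 8.59 to 6.21.

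Long non-coding and microRNA genes fell more often than they rose. Both classes were set up after values were seen. Of 996 long non-coding RNA genes 240 fell (24.1%) and 61 rose (6.12%). Of 205 microRNA genes 53 fell (25.9%) and 7 rose (3.41%). Over all genes 12.9% fell and 26.3% rose, and over those below background in both groups 20.7% fell and 2.17% rose. Restricted to genes whose mean passed background, 82 of 284 long non-coding genes fell against 38 that rose, and 38 of 102 microRNA genes fell against 5. Under that restriction 1158 of all 10264 genes fell and 3981 rose. With centred arrays the falls among all long non-coding and microRNA genes were 130 and 29, still more than the 90 and 15 rises. The nuclear RNAs Malat1 and Neat1, which mark speckles and paraspeckles, both fell. Malat1 read 10.71 to 11.07 (median 10.80) in naive and 9.63 to 10.23 (median 9.89) in effector arrays (difference -0.95 ± 0.12, adjusted p = 5.99e-05), and Neat1 was 2.01-fold lower. Lockd, a transcript next to Cdkn1b, rose by 2.04 ± 0.13, and Morrbid, a regulator of the death gene Bcl2l11, by 0.99 ± 0.15.

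Mature sequences are printed for the microRNA genes with called changes that were named after values were seen, from RefSeq on GRCm38.p6, with the seed (bases 2 to 8) in capitals.
mmu-miR-31-5p (chr4:88910614-88910635, reverse strand): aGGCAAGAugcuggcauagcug
mmu-miR-692 (chr17:6895259-6895279, reverse strand): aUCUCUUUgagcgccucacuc
mmu-miR-1938 (chr12:40222782-40222803, reverse strand): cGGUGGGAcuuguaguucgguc
mmu-miR-339-5p (chr5:139369708-139369730, reverse strand): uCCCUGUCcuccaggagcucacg
mmu-miR-1981-5p (chr1:184822465-184822488, reverse strand): gUAAAGGCugggcuuagacguggc
mmu-miR-107-3p (chr19:34820700-34820722, reverse strand): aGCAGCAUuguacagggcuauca
Mature sequences of 6 of the 7 genes were compared, 10 with both arms counted, and their 10 seeds all differ. None of these 6 genes share a seed family, and Mir1948 was left out of the comparison. The array features belong to the genes, and precursor, mature RNA and host intron cannot be told apart in them. Mir1938 read 9.27 to 10.74 (median 10.61) in naive and 8.42 to 9.07 (median 8.68) in effector arrays (difference -1.65 ± 0.22, adjusted p = 9.20e-05), and Mir339 read 8.04 to 8.49 (median 8.19) and 6.63 to 7.53 (median 6.83) (difference -1.23 ± 0.17). Both fell with separate groups. Mir1981 fell by 1.19 ± 0.25, and Mir107 by 1.30 ± 0.33 with overlapping groups. Upward, Mir692-1 changed by 0.77 ± 0.11, Mir31 by 1.03 ± 0.25 with overlap, and Mir1948 by 4.03 ± 0.23 from below background. Of 19 genes that make microRNAs or write and read m6A, 5 rose and 2 fell; the rises were 3 without effector female 2 or effector male 1, 2 with quantile normalization and 8 with centred arrays. The Dicer partner Tarbp2 rose by 0.94 ± 0.13 and Ago2 by 0.73 ± 0.18, and the nuclear m6A reader Ythdc1 fell by 0.65 ± 0.12.

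Protein synthesis and folding genes rose in all 4 lists that cover them. Of 30 translation initiation and elongation factors 22 rose, with a median of 0.54. Eif4ebp1, the mTORC1-controlled brake on cap-dependent initiation, read 5.82 to 6.47 (median 6.21) in naive and 7.39 to 7.89 (median 7.57) in effector arrays (difference 1.40 ± 0.12, adjusted p = 2.01e-06), and Eif2s2 and Eif1a rose by 1.29 ± 0.17 and 1.26 ± 0.19. Of 23 cytosolic heat shock genes 17 rose, among them the heat shock factor Hsf2 (1.50 ± 0.24), the nucleotide exchange factor Hsph1 (1.39 ± 0.16) and the HSP70 adaptor St13 (1.11 ± 0.12). Separate groups were seen in all 6 genes. At the endoplasmic reticulum, 18 of 29 translocon and N-glycan transfer genes and 23 of 33 COPI and COPII vesicle genes rose, with medians of 0.48 and 0.54. Rpn1 and Ddost of the oligosaccharyltransferase rose by 1.33 ± 0.25 and 0.95 ± 0.18 and Ssr1 of the translocon by 1.18 ± 0.20. Tfg, which organises COPII exit sites, read 6.58 to 7.50 (median 7.26) in naive and 8.18 to 8.67 (median 8.22) in effector arrays (difference 1.18 ± 0.18), the cargo receptor Tmed2 rose by 1.13 ± 0.15, and the KDEL receptor Kdelr2 by 1.39 ± 0.33 with overlapping groups.

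Asns, asparagine synthetase and a target of the amino acid response, was named after values were seen. It read 4.57 to 5.81 (median 4.74) in naive and 7.72 to 8.02 (median 7.75) in effector arrays, a rise of 2.85 ± 0.16 (adjusted p = 6.87e-08). Of 28 mTORC1, AMPK and nutrient sensing genes 14 rose, with a median of 0.33. Lamtor3, which tethers mTORC1 to the lysosome, rose by 1.15 ± 0.21, Fnip2, a folliculin partner, by 1.16 ± 0.14, and Sestd1, counted in this list although it is a phospholipid-binding protein and no sestrin, by 1.00 ± 0.17.

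Lysosomal and autophagy genes were separate lists. Of 28 lysosomal enzyme and V-ATPase genes 13 rose, a count that was 7 with quantile normalization. Lgmn, the asparagine endopeptidase legumain, read 4.61 to 6.37 (median 5.72) in naive and 7.95 to 8.48 (median 8.23) in effector arrays (difference 2.70 ± 0.19, adjusted p = 4.46e-07), cathepsin H (Ctsh) rose by 1.24 ± 0.12, and the proton pump subunit Atp6v1a by 0.92 ± 0.14. All 3 had separate groups. Of 30 autophagy genes 7 rose, 4 without naive female 3, 3 with quantile normalization and 11 with centred arrays, and this share is below that of all genes. Gabarapl1, which labels autophagosomes, rose by 2.05 ± 0.30, and Tecpr1 fell by 0.82 ± 0.14.

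Mitochondrial genes rose, most of all those for protein import. Of 26 import and chaperone genes 22 rose, with a median of 0.67. Timm8a1 of the intermembrane space read 4.89 to 6.02 (median 5.39) in naive and 7.10 to 8.08 (median 7.54) in effector arrays (difference 2.16 ± 0.21, adjusted p = 7.54e-06), Hspd1, which encodes HSP60, rose by 1.72 ± 0.18, and the import receptor Tomm70a by 1.44 ± 0.15. Of 29 tricarboxylic acid cycle and pyruvate entry genes 16 rose, with a median of 0.55. Citrate synthase (Cs) rose by 1.19 ± 0.13 and Idh3a by 1.32 ± 0.14. Pdk3, a kinase that switches off pyruvate dehydrogenase, read 5.25 to 6.78 (median 6.38) and 8.46 to 8.78 (median 8.60) (difference 2.40 ± 0.15). Enzymes of the cycle and an inhibitor of pyruvate entry were thus higher in the same bulk samples. Among 42 Slc25 carriers of the inner membrane, a class formed after values were seen, 16 rose and 2 fell.

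Redox and metal genes had clear members. Of 24 antioxidant and thioredoxin genes 17 rose, with a median of 0.42. Txnrd1, the cytosolic thioredoxin reductase, read 6.18 to 7.21 (median 6.94) in naive and 8.74 to 9.14 (median 8.90) in effector arrays (difference 2.08 ± 0.16, adjusted p = 1.15e-06). Prdx4, the peroxiredoxin of the endoplasmic reticulum, rose by 1.70 ± 0.19 and glutaredoxin (Glrx) by 1.59 ± 0.23. Txnip, which binds and inhibits thioredoxin, is described below and fell. Zinc, copper and metallothionein genes rose in 13 of 24 cases. The zinc importers Slc39a4, Slc39a10 and Slc39a6 rose by 2.33 ± 0.15, 1.48 ± 0.19 and 1.14 ± 0.17, with Slc39a4 at 5.83 to 6.87 (median 6.50) in naive and 8.57 to 8.95 (median 8.81) in effector arrays. In the iron and haem list 5 of 22 rose, a share below that of all genes, and 3 did without naive female 2, without any 1 of the 3 effector females, without effector male 2, or with quantile normalization. The transferrin receptor Tfrc rose by 1.52 ± 0.22 and the haem enzyme Cpox by 0.80 ± 0.18, while Ppox, the next enzyme of that route, fell by 0.98 ± 0.17.

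Of 23 hypoxia-responsive genes 10 rose and 3 fell. The rises were 6 without naive female 1, and the falls were 1 without naive male 2, effector female 2 or 3, or any 1 effector male, and 0 with centred arrays. Epas1, which encodes HIF-2 alpha, read 7.38 to 8.17 (median 7.88) in naive and 9.45 to 10.62 (median 9.84) in effector arrays (difference 2.03 ± 0.14, adjusted p = 2.69e-07). The prolyl hydroxylase Egln3 rose by 2.00 ± 0.32 and Ndrg1 by 1.37 ± 0.16. These 3 had separate groups.

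Cytoskeletal genes rose in both lists that cover them. Of 32 actin and myosin genes 22 rose, with a median of 0.53, and of 27 tubulin, septin and microtubule regulator genes 16 rose, with a median of 0.39. Actg1, cytoplasmic gamma actin, read 7.69 to 8.72 (median 8.20) in naive and 9.83 to 10.28 (median 10.04) in effector arrays (difference 1.85 ± 0.15, adjusted p = 1.26e-06), beta actin (Actb), whose feature read below background in naive cells, rose by 1.86 ± 0.16, and Anln, the anillin of the cleavage furrow, by 2.39 ± 0.17. Tubb6, Tubg1 and Stmn1, a beta tubulin, the gamma tubulin of centrosomes and the microtubule destabiliser stathmin, rose by 2.07 ± 0.19, 1.95 ± 0.22 and 1.65 ± 0.15.

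Signalling lists were mostly near the share of all genes, and single members stood out. In the list of phospholipase C, diacylglycerol kinase and protein kinase C genes, which carry signals of diacylglycerol and calcium, 5 rose and 7 fell of 26. The rises were 3 without effector female 3 or effector male 3, the falls 4 without naive male 1, naive female 1, effector female 3 or effector male 1, and with centred arrays 6 rose and 4 fell. Rasgrp4, a Ras exchange factor switched on by diacylglycerol, read 9.17 to 9.71 (median 9.47) in naive and 6.49 to 7.79 (median 7.27) in effector arrays (difference -2.24 ± 0.20, adjusted p = 3.51e-06). Prkcq, the protein kinase C theta of lymphocyte receptors, read 8.23 to 9.10 (median 8.85) and 7.16 to 7.85 (median 7.69) (difference -1.19 ± 0.16). Plcg2, a phospholipase C, read 3.87 to 5.48 (median 5.03) and 6.42 to 7.21 (median 6.99) (difference 1.97 ± 0.24). The exchange factor and the kinase were thus lower and the phospholipase higher in every effector array than in any naive array.

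The signalling lists given next had 19.2% to 37.9% of members higher and 5.88% to 15.8% lower, against 26.3% and 12.9% of all genes. Of 24 phosphoinositide genes 7 rose and 3 fell, and of 25 cyclic nucleotide genes 8 and 3. Of 29 G protein genes 11 rose and 2 fell, and of 17 purinergic genes 6 and 1. Of 26 channel genes 5 rose and 4 fell, and of 19 calcineurin and NFAT genes 5 and 3. With quantile normalization the phosphoinositide rises were 4, and with centred arrays the calcineurin falls were 0. Members that changed were the phosphoinositide phosphatase Inpp4b, which fell by 1.15 ± 0.12, and the kinase Akt1, which rose by 0.92 ± 0.14. Pde7a, a cyclic AMP phosphodiesterase, fell by 0.80 ± 0.13, and the regulatory subunit Prkar2a of protein kinase A rose by 0.89 ± 0.15. The G protein subunit Gnb4 and the G protein brake Rgs16 rose by 1.43 ± 0.30 and 1.34 ± 0.21, and Rgs18 fell by 0.89 ± 0.20 with overlapping groups. Of the enzymes and receptors of extracellular nucleotides, Nt5e, the ecto-nucleotidase CD73, rose by 1.06 ± 0.16 with overlapping groups, adenosine kinase (Adk) by 1.53 ± 0.25 and the UTP receptor P2ry2 by 1.30 ± 0.22. Tmem176a and Tmem176b, paired cation channels of myeloid and type 3 lymphoid cells, fell by 1.04 ± 0.11 and 1.04 ± 0.14, and the calcium pump Atp2b4 rose by 0.87 ± 0.13. The calcineurin catalytic subunits Ppp3cb and Ppp3cc rose by 0.63 ± 0.15 and 0.69 ± 0.16.

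Some single genes outside the lists were named after values were seen. Lat, the scaffold downstream of receptor-linked kinases, read 10.46 to 10.88 (median 10.54) in naive and 8.80 to 9.29 (median 9.01) in effector arrays (difference -1.57 ± 0.12, adjusted p = 6.16e-07). Hcst, which encodes the adaptor DAP10, read 10.85 to 11.06 (median 10.94) and 8.97 to 9.65 (median 9.26) (difference -1.62 ± 0.12). The groups were separate for both. Csf1, which encodes the macrophage growth factor, fell by 1.78 ± 0.18 and the RNA helicase Ddx5 by 1.64 ± 0.18. In the same selection Tff1, a secreted trefoil peptide, rose by 3.75 ± 0.11, the mitochondrial carbonic anhydrase Car5b by 3.69 ± 0.14, the acid-sensing channel Asic3 by 3.50 ± 0.21, Plac8 by 3.36 ± 0.12, the aminopeptidase Anpep (CD13) by 3.19 ± 0.16 and the lysolipid carrier Mfsd2a by 2.98 ± 0.14.

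The lists of surface and secreted proteins given next had more rises than falls, as had all genes, with 26.3% higher and 12.9% lower. The tetraspanin and TGF-beta lists, described below, had more falls. Of 26 metalloproteases, protease inhibitors and serpins 12 rose and 2 fell (1 without effector female 2), of 32 selectin ligand and glycosyltransferase genes 11 and 3 (6 fell with quantile normalization), and of 20 galectins, annexins and S100 genes 7 and 4 (2 fell without effector female 2 or effector male 3 and with centred arrays). Of 24 proteoglycan and matrix genes 8 rose and 1 fell, but the rises were 4 or 5 without naive male 2, naive female 1 or 2, effector female 2 or 3, or effector male 1 or 2, and 5 with quantile normalization. Annexin A2 (Anxa2) read 6.02 to 7.04 (median 6.82) in naive and 9.14 to 9.35 (median 9.25) in effector arrays (difference 2.63 ± 0.14, adjusted p = 3.84e-08), and Lgals3bp, a galectin-binding glycoprotein, rose by 1.71 ± 0.11. Furin, the convertase that cleaves proproteins, rose by 1.21 ± 0.14, the protease inhibitor cystatin B (Cstb) by 1.35 ± 0.12 and the sheddase Adam9 by 1.20 ± 0.09. Sialyltransferases that cap selectin ligands and other glycans went in opposite directions. St3gal6 read 7.66 to 8.21 (median 8.02) in naive and 5.23 to 6.59 (median 6.21) in effector arrays (difference -1.99 ± 0.17), whereas St3gal1 read 5.70 to 6.41 (median 6.16) and 7.74 to 8.18 (median 8.03) (difference 1.89 ± 0.15). The galactosyltransferase B4galt5 rose by 1.75 ± 0.22. In both sialyltransferases the groups were apart, so each was changed in every array and with opposite sign. Gcnt1, the branching enzyme of core 2 O-glycans and named after values were seen, fell by 1.60 ± 0.10.

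Syndecans diverged as well: Sdc4 fell by 1.69 ± 0.25 and Sdc3 rose by 0.73 ± 0.17 with overlapping groups. Sema4a, a semaphorin of lymphoid and myeloid cells, fell by 1.38 ± 0.13 and the plexin receptor Plxnd1 rose by 1.19 ± 0.15. In the tetraspanin and surface glycoprotein list 10 of 34 members fell and 6 rose, which turned to 7 and 10 with centred arrays. Cd96, a receptor for nectin-like ligands, read 9.41 to 9.78 (median 9.53) in naive and 8.15 to 8.96 (median 8.39) in effector arrays (difference -1.09 ± 0.16), Tspan32 fell by 1.01 ± 0.13, and Alcam, the ligand of CD6, rose by 1.29 ± 0.14. Of the innate sensors, caspase 4 (Casp4), which detects cytosolic lipopolysaccharide, rose by 1.29 ± 0.16, Tlr12 by 1.46 ± 0.15 and Nlrp3 by 1.43 ± 0.27, the last with overlapping groups.

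The 12 largest falls within the same limits, with the naive level above background, were in genes of diverse functions; small RNA genes such as Snord99, given above, and other genes outside those limits fell as much or more. Lpcat2, which makes platelet-activating factor and remodels phospholipids, read 8.94 to 9.44 (median 9.20) in naive and 5.67 to 7.04 (median 6.31) in effector arrays (difference -2.86 ± 0.19, adjusted p = 2.07e-07). Tnf, the inflammatory cytokine, read 8.51 to 9.77 (median 9.27) and 6.72 to 8.05 (median 7.24) (difference -1.93 ± 0.19). Kctd12, an auxiliary subunit of GABA-B receptors, read 7.80 to 8.60 (median 8.47) and 5.53 to 6.50 (median 5.96) (difference -2.42 ± 0.17). These 3 stayed above background in effector cells. The membrane mucin Muc3a fell by 2.26 ± 0.26. Fbxl21, an F-box protein that acts on cryptochromes, fell by 3.08 ± 0.22 and Flrt2, a guidance ligand, by 2.84 ± 0.18. Both dropped to below background, as did Qser1 (-1.95 ± 0.20), Speer4b (-2.13 ± 0.15) and Pramel34 (-1.96 ± 0.17). Speer4b and Pramel34 belong to multicopy families whose members can share probes.

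Circadian clock genes were among the lists with more falls. Of 16 tested genes 7 fell and 3 rose, with a median of -0.34; with centred arrays 5 fell and 5 rose. Nr1d1, the repressor REV-ERB alpha, read 7.44 to 8.28 (median 8.12) in naive and 5.34 to 6.67 (median 6.30) in effector arrays (difference -1.87 ± 0.20, adjusted p = 1.96e-05), and Dbp, an output transcription factor of the clock, read 5.48 to 5.91 (median 5.84) and 4.53 to 4.88 (median 4.71) (difference -1.07 ± 0.11). The cryptochrome Cry1 read 4.94 to 6.40 (median 5.41) and 6.44 to 6.99 (median 6.77) (difference 1.23 ± 0.22). Nr1d1 and Dbp were therefore lower and Cry1 higher in all effector arrays. The labels do not give the time of day at which cells were isolated, and the part of that time in these values was not tested.

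Kruppel-like, Foxo and quiescence factor genes, which hold lymphocytes at rest, had the largest number of falls among the 49 lists. Of 26 tested members 11 fell and 5 rose, with a median of -0.20. With centred arrays 7 fell and 6 rose, and the rises were 3 without naive female 1, effector female 1 or effector male 1 and 2 with quantile normalization. Bach2, a repressor of effector differentiation, read 6.35 to 7.89 (median 7.44) in naive and 4.98 to 5.79 (median 5.53) in effector arrays (difference -1.77 ± 0.23, adjusted p = 7.25e-05). Txnip, the thioredoxin inhibitor that also limits glucose uptake, read 11.11 to 11.71 (median 11.61) and 9.71 to 10.28 (median 10.01) (difference -1.48 ± 0.14). Klf2, a quiescence and trafficking factor of lymphocytes, read 6.06 to 7.15 (median 6.59) and 4.97 to 5.97 (median 5.46) (difference -1.11 ± 0.19). All 3 were lower in each effector array than in any naive array.

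TGF-beta, activin and BMP genes also had more falls, 10 of 34 with 5 rises and a median of -0.24, but with centred arrays 8 rose and 6 fell. The rises were 3 without naive female 2, effector female 2 or effector male 3, and also with quantile normalization. Bmp7 read 8.83 to 9.36 (median 9.03) in naive and 7.40 to 8.10 (median 7.88) in effector arrays (difference -1.24 ± 0.12, adjusted p = 7.63e-06). Bmp2 fell by 1.28 ± 0.22 to below background with overlapping groups. Tgfb3 went the other way, from 4.60 to 5.43 (median 5.03) to 6.81 to 8.01 (median 7.03) (difference 2.17 ± 0.18). Ligands of this family were thus both lower and higher in effector cells, with every effector array above the naive ones for Tgfb3 and below them for Bmp7.

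**Figure D5:**
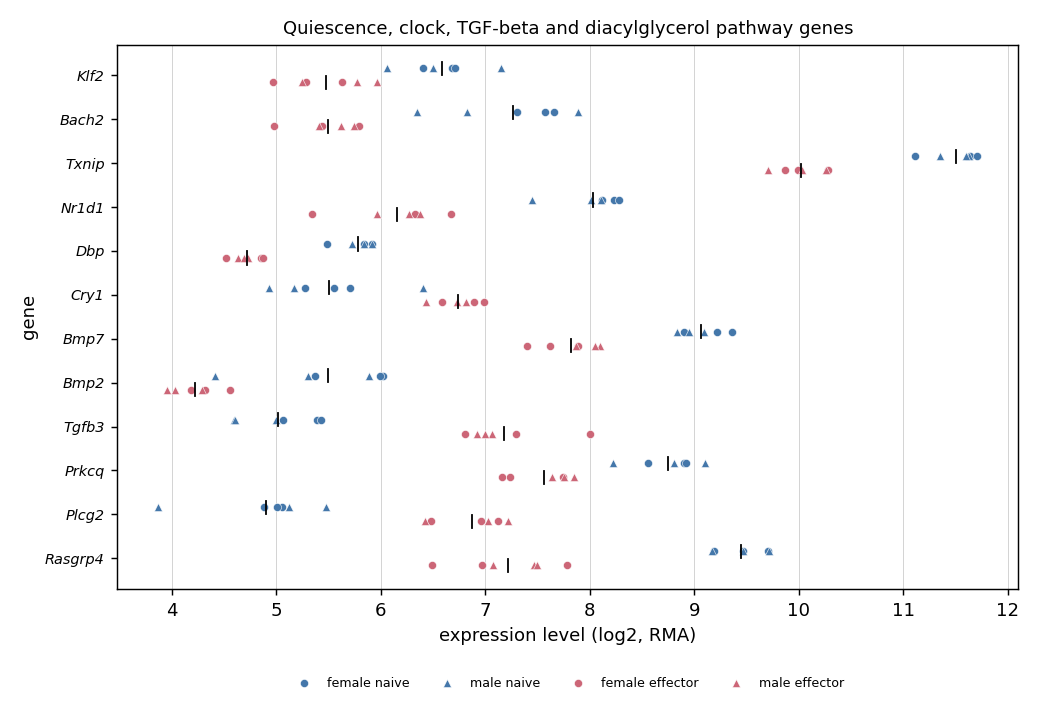
Expression level (log2) in each of the 12 arrays for genes of the quiescence, clock, TGF-beta and diacylglycerol lists; circles are females, triangles males, blue naive, red effector, and black bars group means. Klf2, Bach2, Txnip, Nr1d1, Dbp, Bmp7, Prkcq and Rasgrp4 are lower and Cry1, Tgfb3 and Plcg2 higher in all effector arrays, while the groups of Bmp2 overlap.

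Wnt and nuclear receptor lists had fewer rises than the share of all genes, 26.3%, beside 12.9% lower. Of 30 Wnt genes 5 rose and 5 fell (16.7% each), and the rises were 3 when any 1 of 8 of the arrays was left out. Of 27 nuclear receptor genes 3 rose (11.1%) and 6 fell (22.2%), with a median of -0.08. With centred arrays 4 rose and 4 fell, with a median of 0.06. Tcf7l1, a repressor of Wnt targets, fell by 1.14 ± 0.13 to below background, the corepressor Tle4 fell by 1.01 ± 0.16 with overlapping groups, and the receptor Fzd6 rose by 0.92 ± 0.21. Among nuclear receptors the vitamin D receptor Vdr read 4.21 to 5.78 (median 5.32) in naive and 6.07 to 7.03 (median 6.33) in effector arrays (difference 1.23 ± 0.18), while the retinoic acid receptor Rarg fell by 0.98 ± 0.13 and the thyroid hormone receptor Thra by 0.68 ± 0.12. Of 41 sphingolipid and phospholipid enzyme genes 18 rose and 3 fell, with a median of 0.43. Ceramide synthase 6 (Cers6) rose by 1.61 ± 0.19 and the acyltransferase Agpat5 by 1.19 ± 0.15, against the fall of Lpcat2 given above.

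The naming rule favours genes that changed in both sexes, so their direction in each sex is not used here. Tested within each sex with 3 arrays against 3, 2727 genes were called in females and 4623 in males, of which 2161 were called in both with the same direction. The difference between the female and male responses, tested directly with limma, was called for 0 of 15821 genes, with 1157 genes at an unadjusted p under 0.05, and was called for 1 gene after leaving out naive female 1, naive female 3 or effector male 2. The larger count in males is therefore not shown to be a difference between the sexes.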

How the data were processed

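Total RNA of isolated lung ILC2s was labelled with biotin and hybridised to 1 array per replicate. The authors deposited log2 expression values made with Affymetrix Expression Console and RMA, per the submitters' processing notes; its tool versions, genome build and array dates are not stated by the sources at hand. The table held 41345 features: 23521 with 1 gene symbol, 1814 with several and 16010 with none, the last 2 kinds left out of gene tests.

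Features had to exceed percentile 40 of an array in 3 or more of the 12 arrays, and the brightest feature of a gene was used. The fit was limma 3.58.1 in R 4.3.3, with a mean for each of 4 groups of 3 and moderated variances (eBayes, with 8 residual degrees of freedom and a prior worth 4.54); the contrast weighted sexes equally, and p was two-sided. The code was tested on simulated data. Gene lists (113 entries with no single-symbol feature, 53 below the filter) had no set test, and 1 list and 1 gene are not reported here. Named genes were the 12 largest rises and 12 largest falls with separate groups above background, and up to 3 called members per list with the largest change, leaving out genes named in earlier text; classes and genes said to be named after values were seen fall outside that rule. The comparison, lists and members were chosen with earlier results of these data known. Symbols and biotypes came from GRCm38.p6 tables, and promoters were matched by symbol. Deviations of arrays with equal replicate numbers correlated at -0.113 to 0.083 over 18 pairs, so no pairing by number was seen. The correlation runs over all genes and cannot exclude a pairing that affects few of them. Alternatives covered filters, scalings, priors, array weights, a replicate block, all 15 arrays, sex left out, mean of features, a 2-fold threshold and each array left out. The number of arrays limits the precision. Figures used matplotlib 3.10.9.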

Additional observations from a re-analysis of the deposited data

Results flagged for a closer look

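Nr1d1, the clock repressor, was lower in naive male 2 than in the other naive arrays. That array read 7.44, the next lowest naive array 8.02 and the highest 8.28, a gap of 0.687 of the whole range of the 6 naive arrays. The limit for such a gap is set so that chance passes it in about 1 in 20 groups examined. Many groups were examined, the naive and effector arrays of the 12 largest rises and 12 largest falls, but no other genes. All 6 effector arrays were lower still, at most 6.67, and the fall of Nr1d1 was called without each array in turn. Some named genes outside that examination also had 1 naive array far from the rest. Mir1938 read 9.27 in naive female 3 and at least 10.47 in the other naive arrays. Tfdp1 read 4.94 in naive male 1 and at least 7.15 in the other naive arrays.

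Features with no gene symbol or several also carried signal. Of 17824 such features 11321 passed the filter, and 1037 were called higher and 1778 lower in effector cells. Their genes are not named here.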

How the results depend on the processing

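The called counts kept their order, more higher than lower, under all 24 alternatives run. Leaving out 1 array gave 5239 to 6516 genes called, 3657 to 4417 higher and 1556 to 2099 lower, and 0 to 1 genes whose response differed between the sexes. Fewer genes were lower with stricter filters, 1333 at percentile 60 and 1158 above the sensory receptor background, where fewer genes were tested, and 1148 with centred arrays. Against a 2-fold threshold limma's treat called 442 genes, 370 higher and 72 lower, and 0 for the sex difference. The sex difference was called for 1 gene at percentile 60, with centred arrays and with array weights; the cause was not tested. With the replicate number as a block, 5997 genes were called, 4069 higher and 1928 lower. Whether the numbers pair the samples is not stated by the labels. Of the genes named, none reversed. Atg4a, Snhg1 and Snhg20 were no longer called under 6, 9 and 8 alternatives, the 2-fold threshold not counted, and their values are not given in the text. The dim naive signal near background limits differences of genes below it.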

Other observations

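Solute carriers and some genes outside the lists, all picked after values were seen, also changed. Of 272 Slc genes 73 were higher and 25 lower, shares of 26.8% and 9.19% beside 26.3% and 12.9% of all genes. Ttc39c rose by 3.11 ± 0.25 and Tppp3, a tubulin polymerisation protein, by 2.88 ± 0.25. Rab4a, a GTPase of endosome recycling, differed by -1.61 ± 0.17, the polarity protein Pard3 by -1.63 ± 0.16 and the zinc finger repressor Zbtb20 by -1.53 ± 0.20. Long non-coding AW112010, known from inflamed lymphocytes, rose by 0.88 ± 0.09, and Firre fell by 0.86 ± 0.22. Effector and naive arrays were apart for these 7 genes.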
